A study of Homo sapiens with 16 samples.

Results

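EIF6 knockdown was examined in the polysomal RNA of H69, a human small cell lung cancer line. The tested cells carried a stably integrated lentiviral shRNA against EIF6 (sheIF6), and the reference cells carried a control shRNA (shNTC). Each side had 2 libraries, so that 4 of the 16 libraries of the series and 23100 of the 56832 gene names in the count table, those with enough counts, entered the comparison. The other 12 libraries were cytoplasmic RNA of the same H69 cells, and polysomal and cytoplasmic RNA of sheIF6 and shNTC cells of a second small cell lung cancer line, H69M. All cells grew in RPMI medium with fetal bovine serum, with no drug named in the labels. Polysomal RNA was taken from sucrose fractions of a polysome profile, and cytoplasmic RNA from a hypotonic lysate with cycloheximide. The labels name 1 shRNA per target, give the control cells the genotype WT, and do not say whether the 2 libraries of a group were grown apart; the p-values below therefore speak of library-to-library spread, which may be technical.

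EIF6 protein sits on the 60S ribosomal subunit and blocks its union with the 40S subunit. It takes part in the making of 60S subunits in the nucleolus, and it has to leave a new subunit, with the help of SBDS, before that subunit can translate. An mRNA loaded with several ribosomes travels deep into a sucrose gradient, so that the polysomal fraction samples the messages under active translation. The amount of a message there follows both how much of it the cell holds and how well it is loaded, which is why the cytoplasmic RNA of the same cells was set beside it. H69 is of the neuroendocrine kind, in which transcription factors such as INSM1 and NEUROD1 and secretory granule proteins such as chromogranin A are made.

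The sheIF6 polysomal libraries held 44813795 and 41631487 counts and the shNTC polysomal libraries 43827638 and 41828327, within a range of 36005326 to 87269772 over the series. Levels are given as CPM, the counts scaled to a common library size by TMM, in the order of replicates 1 and 2. The 11 neuroendocrine markers were all detected and summed to 5149 and 4319 CPM in sheIF6 libraries, against 4891 and 4624 CPM in shNTC libraries. INSM1 alone stood at 2351 and 1590 CPM in sheIF6 libraries and at 2216 and 1571 CPM in shNTC libraries. The 11 immune markers summed to 6.77 and 5.29 CPM in sheIF6 libraries and to 6.68 and 5.62 CPM in shNTC libraries, most of it CD14, with 5 to 8 of them, CD3E among these, at 0. The libraries with the same replicate number lay closer to each other than the libraries of the same shRNA. The median absolute log2 difference over 12940 genes with a mean of at least 100 counts in the higher group was 0.186 and 0.194 between sheIF6 and shNTC libraries of the same number, and 0.340 and 0.377 between the 2 replicates of sheIF6 and of shNTC. The share of mitochondrially encoded counts also followed the number, at 0.434 and 1.38% in sheIF6 libraries and 0.384 and 0.867% in shNTC libraries. A fit that holds the replicate number as a block within each line is therefore given beside the fit without it.

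EIF6 mRNA itself stood at 234 and 220 CPM in sheIF6 polysomes, against 424 and 389 CPM in shNTC polysomes. Both knockdown libraries lay below both controls, at 55.9% of the control mean. The log2 change was -0.84 (SE 0.295), which did not pass after Benjamini-Hochberg adjustment over all genes by the edgeR quasi-likelihood test (adjusted p = 0.956, and 0.572 with the replicate block). Over 20 alternative settings the change ran from -0.90 to -0.78 and passed in 1, the fit of the 8 H69 libraries alone with the replicate block (adjusted p = 0.0300).

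Very few messages changed beyond the spread between libraries, and those that did were mostly lower in knockdown cells and of low abundance. By edgeR without the block, 1 of 23100 genes passed an adjusted p of 0.05, or 0.00433% of those tested, with 1 lower (0.00433%) and 0 higher (0%), while 956 genes (4.14%) had an unadjusted p under that limit. With the replicate block 25 genes passed (0.108%), of which 18 were lower (0.0779%) and 7 higher (0.0303%). In 24 of the 25 the sheIF6 and shNTC libraries did not overlap. Over all genes tested, sheIF6 libraries lay below both shNTC libraries in 11.3% and above both in 11.4%, and 2 against 2 libraries cannot reach a two-sided exact permutation p below 0.333. The fit recovered few modest changes in simulated data: of 50 genes changed at each size, it called 0 at 2-fold, 27 at 4-fold and 45 at 8-fold without the block, and 0, 26 and 43 with it. The simulated libraries had no replicate effect and took their spread from the fit without the block. They therefore cannot show what the block gains in the real libraries. The changed genes averaged at least 100 counts in shNTC polysomes, so genes with fewer counts there are not covered.

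HMCN1, which encodes hemicentin-1, a very large extracellular matrix protein, was the gene that passed in both fits, and it was lower in sheIF6 polysomes. It is on chromosome 1 (185734551 to 186190949, plus strand, GRCh38). It stood at 0.0505 and 0.0731 CPM in sheIF6 polysomes, from 2 and 3 reads, and at 2.00 and 2.18 CPM in shNTC polysomes, from 76 and 88 reads. The groups were far apart and each pair of replicates was close. The log2 change was -5.02 (SE 0.524; adjusted p = 0.00803, and 0.0106 with the block). The call was lost when either sheIF6 library was left out (adjusted p = 0.0764 without replicate 1 and 0.160 without replicate 2). In the cytoplasm HMCN1 stood at 0.329 and 0.489 CPM in sheIF6 libraries and at 3.44 and 2.06 CPM in shNTC libraries, a change of -2.74 that did not pass.

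The other 17 lower genes passed with the block and not without it, and several encode signalling proteins. WLS, the carrier that brings Wnt ligands to the cell surface (chromosome 1, 68098473 to 68233120, minus strand), stood at 16.5 and 6.87 CPM in sheIF6 polysomes and at 110 and 42.3 CPM in shNTC polysomes. Replicate 1 was higher than replicate 2 on both sides, and the groups did not overlap. WLS fell by 2.68 on the log2 scale with the block (SE 0.232; adjusted p = 0.00164, and 0.274 without the block). RASGRP1, an activator of Ras that is switched on by diacylglycerol (chromosome 15, 38488103 to 38565575, minus strand), stood at 7.35 and 6.53 CPM in sheIF6 polysomes and at 72.2 and 30.3 CPM in shNTC polysomes. Its log2 change with the block was -2.76 (SE 0.339; adjusted p = 0.0144, and 0.203 without). IL17RD, a membrane inhibitor of fibroblast growth factor signalling, stood at 1.21 and 0.390 CPM in sheIF6 polysomes and at 12.8 and 2.65 CPM in shNTC polysomes. FRZB, a secreted Wnt antagonist, stood at 9.82 and 5.82 CPM in sheIF6 polysomes and at 38.2 and 18.7 CPM in shNTC polysomes. Both passed with the block (adjusted p = 0.0409 for IL17RD and 0.0444 for FRZB) and not without it (0.493 and 0.559). DUSP3, a phosphatase that acts on ERK and JNK, stood at 1.62 and 1.66 CPM in sheIF6 polysomes against 4.26 and 6.93 CPM in shNTC polysomes (log2 -1.76 with the block, adjusted p = 0.0409, and 0.275 without). LPAR1, a receptor for lysophosphatidic acid, and CNKSR3, a scaffold related to the connectors of the Ras pathway, also passed with the block (-2.99 and -1.57).

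Other genes of the lower group belong to matrix, adhesion, transcription and phosphoinositide signalling. LAMA4, a laminin chain of basement membranes, stood at 1.79 and 0.975 CPM in sheIF6 polysomes and at 6.44 and 3.46 CPM in shNTC polysomes, and its log2 change was -1.84 with the block (SE 0.215; adjusted p = 0.0106, and 0.578 without). AIM1, listed in current annotation as CRYBG1, stood at 2.58 and 0.975 CPM in sheIF6 polysomes and at 19.7 and 9.28 CPM in shNTC polysomes (-3.06 with the block, adjusted p = 0.0106, and 0.248 without). TBX2, a T-box transcription factor, stood at 3.46 and 2.46 CPM in sheIF6 polysomes and at 9.89 and 12.4 CPM in shNTC polysomes (-1.92 with the block, adjusted p = 0.0409, and 0.248 without). INPP4B, a phosphoinositide phosphatase, stood at 0.227 and 0.414 CPM in sheIF6 polysomes and at 3.08 and 1.86 CPM in shNTC polysomes. AMOTL2, an angiomotin that binds YAP at cell junctions, had 4 and 0 reads in sheIF6 polysomes and 48 and 34 reads in shNTC polysomes. IL21R, the interleukin 21 receptor, had no read in either sheIF6 polysomal library and 16 and 14 reads in shNTC polysomes, which makes it at least 10.3-fold lower (3 counts over the group as the floor, counting error only). SHCBP1, LBH and LIMCH1 passed with the block as well, at log2 changes of -1.34, -1.36 and -3.48. The clone-named transcript CTD-2207O23.3 passed on 1 library alone: it had 0 reads in both sheIF6 libraries and in shNTC replicate 1, and stood at 33.0 CPM in shNTC replicate 2.

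The 7 genes that rose with the block were also of low level, and include a channel subunit and a junction gene. KCNS3, a silent subunit that modifies Kv2 potassium channels (chromosome 2, 17877847 to 18361616, plus strand), stood at 4.29 and 5.51 CPM in sheIF6 polysomes and at 0.342 and 0.495 CPM in shNTC polysomes. Its log2 change was 3.54 in both fits (SE 0.459 with the block; adjusted p = 0.0210, and 0.194 without). PKP2, plakophilin 2 of the desmosome, stood at 6.84 and 4.12 CPM in sheIF6 polysomes and at 1.92 and 0.693 CPM in shNTC polysomes (2.12 with the block, adjusted p = 0.0409, and 0.552 without). CXorf57 stood at 5.18 and 4.14 CPM in sheIF6 polysomes and at 0.184 and 0.0495 CPM in shNTC polysomes, a change of 5.43 with the block. CLEC1A, a C-type lectin receptor, stood at 3.53 and 1.88 CPM in sheIF6 polysomes and at 0.237 and 0.0495 CPM in shNTC polysomes (4.33 with the block, adjusted p = 0.0456, and 0.380 without). KIF16B, a kinesin that moves early endosomes, PRRG1, a membrane protein with a Gla domain, and PAPLN, a matrix protein related to the ADAMTS proteases, changed by 4.65, 3.57 and 1.40.

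**Figure D1:**
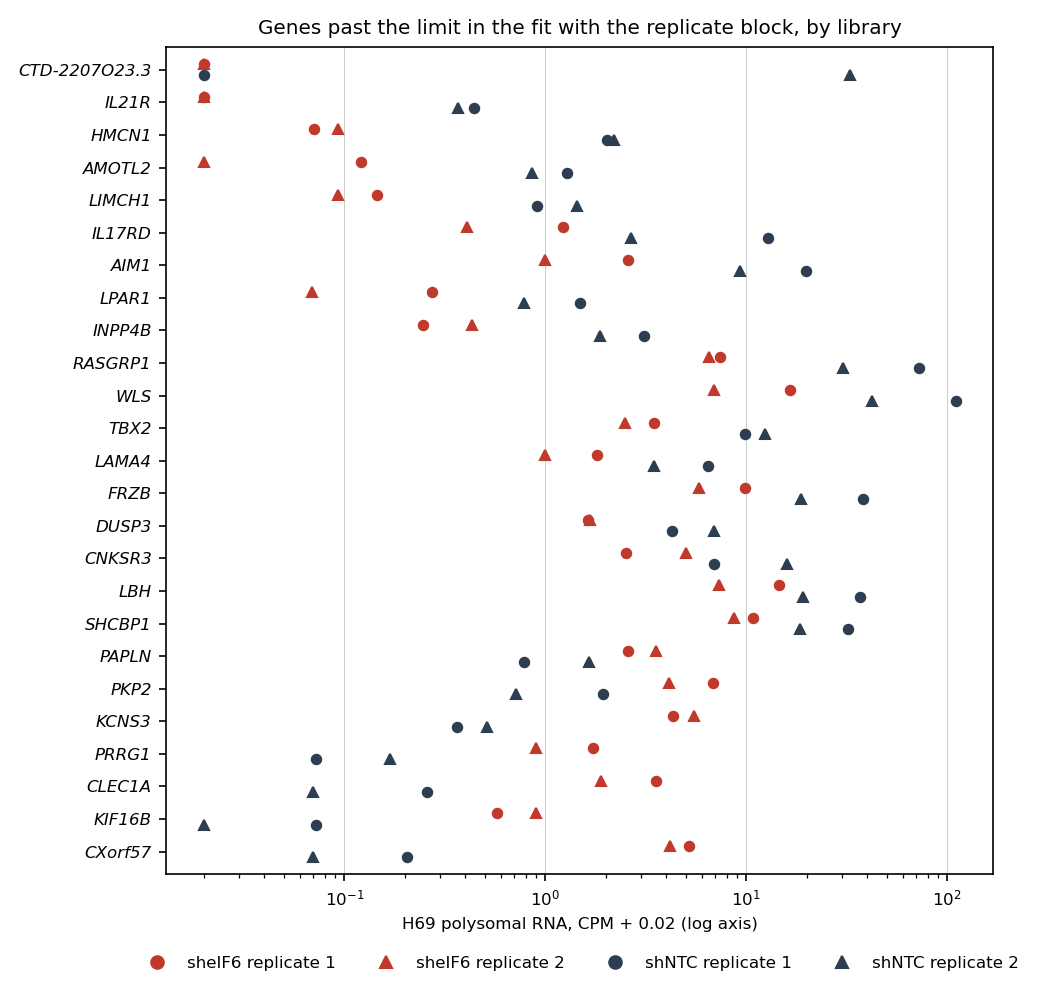
Level of each of the 25 genes called with the replicate block in the 4 H69 polysomal libraries, as CPM + 0.02 on a log axis; red symbols are sheIF6 and dark symbols shNTC, circles replicate 1 and triangles replicate 2. In every gene but CTD-2207O23.3 the red and dark symbols do not overlap, with the 18 lower genes above and the 7 higher genes below.

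The calls with the block depended on which libraries were used. Without sheIF6 replicate 1 the fit called 14 genes, without sheIF6 replicate 2 it called 1, without shNTC replicate 1 it called 24, and without shNTC replicate 2 it called 5, of which 4, 0, 10 and 4 were among the 25. AIM1 and WLS passed in 3 of these 4 fits. DESeq2 called 92 genes and limma-voom 0.

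Among the 12 genes in each direction with the smallest unadjusted p, taken from those whose groups did not overlap and whose higher group averaged at least 100 counts, those not named above passed in neither fit. Their values are given as levels or log2 changes. TRPM3, a cation channel, stood at 6.56 and 4.34 CPM in sheIF6 polysomes against 0.605 and 0.297 CPM in shNTC polysomes (log2 3.59, adjusted p = 0.274). CD276, the immune checkpoint protein B7-H3, stood at 11.9 and 6.90 CPM in sheIF6 polysomes against 1.79 and 3.07 CPM in shNTC polysomes (1.95, adjusted p = 0.317). BTN3A2, a butyrophilin, and PARP12, a mono-ADP-ribosyltransferase, had log2 changes of 1.71 and 1.44. TRABD2A and C11orf96 had log2 changes of 3.54 and 2.19. On the lower side, BMPR1B, a type I receptor for bone morphogenetic proteins, stood at 0.151 and 0.146 CPM in sheIF6 polysomes and at 2.84 and 4.36 CPM in shNTC polysomes (-4.57, adjusted p = 0.353). PTPRS, a receptor phosphatase of neurons, stood at 45.1 and 36.4 CPM in sheIF6 polysomes and at 98.5 and 71.7 CPM in shNTC polysomes (-1.06, adjusted p = 0.353). DR1, a repressor of RNA polymerase II initiation, stood at 15.3 and 14.5 CPM in sheIF6 polysomes and at 35.2 and 28.9 CPM in shNTC polysomes. SRPX, SLC35F3 and KANK4 had log2 changes of -2.09, -1.69 and -2.67. MSANTD3-TMEFF1, which overlaps MSANTD3 and TMEFF1 on the same strand, stood at 0.0505 and 0 CPM in sheIF6 polysomes. In shNTC polysomes it stood at 2.13 and 3.96 CPM (-6.79). Its sum with MSANTD3 changed by 0.18 on the log2 scale, and its sum with TMEFF1 by 0.05.

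The list furthest from the rest was that of ERK target and feedback genes. Ras, RAF, MEK and ERK form a relay from growth factor receptors to the nucleus; ERK there switches on immediate early genes such as EGR1 and FOS, then ETS factors such as ETV4 and ETV5, and also the sprouty, SPRED and dual-specificity phosphatase genes, whose products damp the relay. None of the 23 list members passed in either fit. In 16 of 23 (69.6%) both sheIF6 libraries lay below both shNTC libraries and in 0 above, beside 11.3% and 11.4% of all genes tested. The median log2 change of the list was -1.40, beside 0 for all genes tested, and 21 of the 23 changes were negative. The lists were chosen with results of these data known, so the count is a description. The members whose levels are given below are all among the 16.

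To show what these genes carry upstream of their starts, the promoters of EGR1, SPRY4 and DUSP6 are given for the 250 bases before the first start that RefSeq lists (GRCh38.p14), 5′ to 3′ on the strand of the gene. Capitals mark the CArG box bound by serum response factor, the sequence TGACG of the cAMP response element and the sequence CCGGAA bound by ETS factors, each on either strand (CGTCA and TTCCGG on the other), with no overlap between marked stretches. EGR1 is at chr5:138465229-138465478 (plus strand), SPRY4 at chr5:142324248-142324497 (minus strand) and DUSP6 at chr12:89352502-89352751 (minus strand).
EGR1: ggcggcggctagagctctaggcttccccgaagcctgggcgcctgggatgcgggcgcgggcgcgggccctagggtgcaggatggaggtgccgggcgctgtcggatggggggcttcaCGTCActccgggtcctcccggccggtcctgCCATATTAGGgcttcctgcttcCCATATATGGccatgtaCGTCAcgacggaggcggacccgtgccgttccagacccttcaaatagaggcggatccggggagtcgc
SPRY4: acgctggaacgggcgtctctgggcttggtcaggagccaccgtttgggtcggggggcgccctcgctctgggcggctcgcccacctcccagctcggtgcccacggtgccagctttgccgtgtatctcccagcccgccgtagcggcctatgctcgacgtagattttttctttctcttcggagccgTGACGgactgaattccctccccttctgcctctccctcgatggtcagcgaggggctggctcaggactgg
DUSP6: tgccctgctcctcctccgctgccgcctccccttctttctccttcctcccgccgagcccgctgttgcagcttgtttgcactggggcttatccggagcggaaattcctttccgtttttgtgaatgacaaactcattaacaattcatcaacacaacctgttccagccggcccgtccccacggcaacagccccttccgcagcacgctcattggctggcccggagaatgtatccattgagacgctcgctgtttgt
EGR1 holds 2 CArG boxes and 2 TGACG matches, SPRY4 holds 1 TGACG match and DUSP6 holds none of the 3 motifs in this window. Of the 14 list members with a window in the RefSeq table, 1 held a CArG box (7.14%), 6 held TGACG (42.9%) and 3 held CCGGAA (21.4%), beside 1.14%, 21.7% and 14.8% of 27305 windows of all genes. A match is only a match of letters in these windows.

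Among the feedback inhibitors, SPRY4 stood at 2.30 and 1.44 CPM in sheIF6 polysomes and at 30.4 and 5.47 CPM in shNTC polysomes. shNTC replicate 1 was by far the highest library, and both sheIF6 libraries lay below both controls. The log2 change was -3.26 (SE 1.25; adjusted p = 1, and 0.451 with the block). DUSP6, the phosphatase specific for ERK, stood at 4.34 and 1.75 CPM in sheIF6 polysomes and at 23.8 and 4.83 CPM in shNTC polysomes (-2.23, SE 0.958). Its sheIF6 replicate 1 came close to shNTC replicate 2. SPRY2 stood at 0.631 and 0.634 CPM in sheIF6 polysomes against 2.95 and 1.11 CPM in shNTC polysomes. DUSP5 and DUSP4 stood at 0.858 and 0.975 CPM and at 44.1 and 27.1 CPM in sheIF6 polysomes, against 2.08 and 3.39 CPM and 88.9 and 48.2 CPM in shNTC polysomes. DUSP5 was one of the members in which shNTC replicate 1 was not the highest library.

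Among the transcription factors, ETV4 stood at 10.1 and 9.72 CPM in sheIF6 polysomes and at 44.7 and 15.6 CPM in shNTC polysomes. ETV5 stood at 0.151 and 0 CPM in sheIF6 polysomes and at 3.05 and 0.445 CPM in shNTC polysomes. EGR1, whose promoter is printed above, stood at 2.32 and 3.17 CPM in sheIF6 polysomes and at 10.1 and 4.48 CPM in shNTC polysomes (log2 -1.40, adjusted p = 1). In each of the 3, shNTC replicate 1 was again the highest. FOS stood at 5.25 and 7.55 CPM in sheIF6 polysomes and at 15.7 and 10.8 CPM in shNTC polysomes. MYC stood at 2.35 and 2.29 CPM in sheIF6 polysomes and at 9.02 and 4.11 CPM in shNTC polysomes (-1.50, SE 0.451; adjusted p = 0.697, and 0.315 with the block). CCND1, the D-type cyclin of the G1 phase, stood at 1.57 and 0.731 CPM in sheIF6 polysomes and at 3.18 and 3.14 CPM in shNTC polysomes (-1.46, SE 0.426; adjusted p = 0.655, and 0.105 with the block). PHLDA1 stood at 56.0 and 37.7 CPM in sheIF6 polysomes against 91.2 and 62.1 CPM in shNTC polysomes.

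The size of these differences depended on shNTC replicate 1. Over the 23 members shNTC replicate 1 exceeded shNTC replicate 2 by a median of 0.884 on the log2 scale, and sheIF6 replicate 1 exceeded sheIF6 replicate 2 by 0.236. The median difference of sheIF6 minus shNTC was -1.23 between the libraries numbered 1 and -0.774 between those numbered 2. In both pairs 19 of the 23 members were lower and 1 was higher, beside 6249 lower and 6226 higher of all 23100 genes tested. The list median was -0.66 without shNTC replicate 1 and -1.52 at the other end of the leave-out range. What set shNTC replicate 1 apart was not tested.

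**Figure D2:**
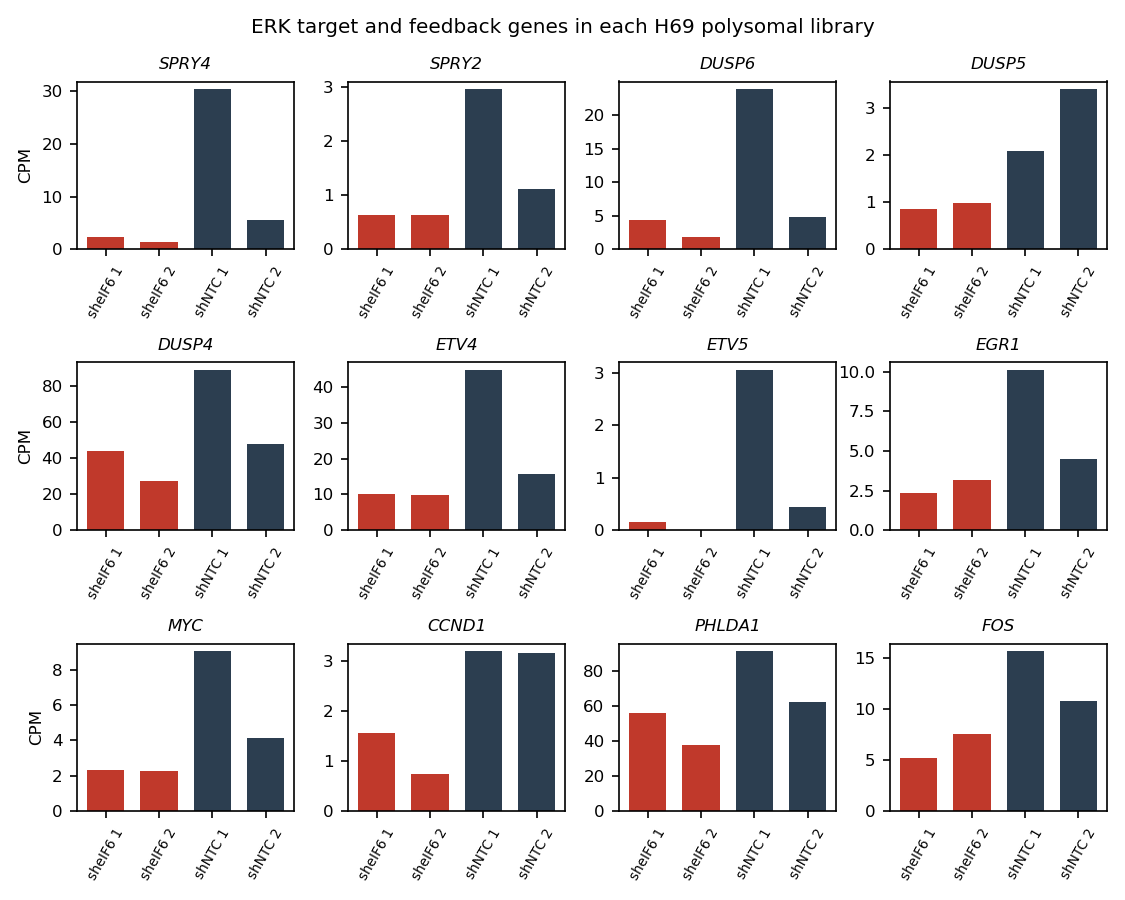
Level in CPM of 12 ERK target and feedback genes in the 4 H69 polysomal libraries, 1 bar per library with sheIF6 in red and shNTC in dark blue. The 12 are all from the 16 of 23 list members whose sheIF6 libraries lay below both shNTC libraries. The 7 members whose groups overlap are not drawn. In all 12 both red bars are therefore below both dark bars, and in SPRY4, DUSP6, ETV4 and ETV5 shNTC replicate 1 stands far above shNTC replicate 2.

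Receptor and Ras pathway genes upstream of ERK were more mixed. RASGRP1 was the 1 of 32 members tested that passed with the block, and 7 members lay below and 3 above both shNTC libraries (21.9% and 9.38%, beside 11.3% and 11.4% of all genes tested). The median log2 change was -0.29, and it ran from -0.53 without sheIF6 replicate 1 to -0.03 without sheIF6 replicate 2. RET, a receptor tyrosine kinase of neural crest derivatives, stood at 1.21 and 3.36 CPM in sheIF6 polysomes and at 7.84 and 10.3 CPM in shNTC polysomes (-1.99, adjusted p = 1).

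In the TGF-beta and BMP list 12 of 32 members lay below both shNTC libraries and 2 above, and none passed. These were 37.5% and 6.25%, beside 11.3% and 11.4% of all genes tested. Of the changes, 20 were negative and 12 positive. The median was -0.24, with a range of -0.30 to -0.04 on leaving out 1 library. BMPR1B, given above, had the most negative change. INHBA, the activin A subunit, stood at 4.52 and 4.46 CPM in sheIF6 polysomes and at 15.3 and 8.09 CPM in shNTC polysomes (-1.38). TGFBR3, the co-receptor betaglycan, stood at 1.72 and 1.44 CPM in sheIF6 polysomes and at 5.55 and 2.28 CPM in shNTC polysomes (-1.31).

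Of the Wnt list of secretion factors, receptors and antagonists 37 members were tested, and WLS was the 1 that passed with the block. FRZB is not on the list. Of the 37, 7 lay below and 4 above both shNTC libraries (18.9% and 10.8%, beside 11.3% and 11.4% of all genes tested), and the median of -0.16 ran from -0.24 to -0.01 on leaving out 1 library. DKK3, a secreted member of the dickkopf family, stood at 21.8 and 16.4 CPM in sheIF6 polysomes and at 68.4 and 27.97 CPM in shNTC polysomes (-1.33, adjusted p = 0.943). Values on the other side were those of LGR5, a receptor for R-spondins, at 16.4 and 11.7 CPM in sheIF6 polysomes and 4.66 and 6.88 CPM in shNTC polysomes (1.28), and of NKD1, an inhibitor of Wnt signalling, at 7.35 and 8.58 CPM in sheIF6 polysomes and 3.13 and 4.36 CPM in shNTC polysomes (1.09). Neither passed (adjusted p = 1 each).

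Neuroendocrine lineage genes did not pass, and the low-level factors differed more than the abundant ones. Of 23 members tested, 8 lay below and 1 above both shNTC libraries (34.8% and 4.35%, beside 11.3% and 11.4% of all genes tested). The median of -0.17 ran from -0.42 to -0.03 on leaving out 1 library. INSM2, a zinc-finger factor related to INSM1, stood at 1.31 and 1.51 CPM in sheIF6 polysomes and at 9.44 and 5.42 CPM in shNTC polysomes (-2.39, SE 0.683; adjusted p = 0.622, and 0.144 with the block). NHLH1 and NEUROD2, basic helix-loop-helix factors of neurons, stood at 6.94 and 6.21 CPM and at 4.01 and 3.09 CPM in sheIF6 polysomes, against 16.9 and 15.99 CPM and 9.97 and 7.35 CPM in shNTC polysomes. NKX2-1, the lung and thyroid factor, stood at 15.4 and 15.5 CPM in sheIF6 polysomes and at 29.8 and 23.5 CPM in shNTC polysomes (-0.78). CHGA, chromogranin A, stood at 372 and 397 CPM in sheIF6 polysomes and at 495 and 514 CPM in shNTC polysomes (-0.39, SE 1.17).

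Epithelial junction and keratin genes lay the other way. Of 34 members, 9 lay above both shNTC libraries (26.5%, beside 11.4% of all genes tested) and 0 below, and PKP2 was the 1 that passed with the block. The median of 0.18 ran from 0.07 to 0.40 on leaving out 1 library. DSG2, desmoglein 2 of the same junction as PKP2, stood at 33.1 and 11.7 CPM in sheIF6 polysomes and at 6.89 and 3.42 CPM in shNTC polysomes (2.12, SE 0.535; adjusted p = 0.493, and 0.0822 with the block). KRT19, a simple epithelial keratin, stood at 209 and 214 CPM in sheIF6 polysomes and at 63.5 and 137 CPM in shNTC polysomes (1.08, SE 0.581). ELF3 and ESRP2, an epithelial ETS factor and an epithelial splicing regulator, stood at 142 and 159 CPM and at 8.76 and 6.43 CPM in sheIF6 polysomes, against 47.7 and 97.1 CPM and 2.55 and 3.79 CPM in shNTC polysomes. CDH1, E-cadherin, stood at 4.04 and 6.19 CPM in sheIF6 polysomes and at 3.66 and 7.42 CPM in shNTC polysomes, where the groups overlap, while CDH2, N-cadherin, stood at 21.4 and 21.6 CPM in sheIF6 polysomes and at 86.7 and 44.4 CPM in shNTC polysomes (-1.61, SE 0.360; adjusted p = 0.380, and 0.123 with the block).

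Among 22 tetraspanins, 4 lay above and 6 below both shNTC libraries, and none passed in either fit. These were 18.2% and 27.3%, beside 11.4% and 11.3% of all genes tested. CD9 stood at 34.2 and 25.2 CPM in sheIF6 polysomes and at 12.7 and 2.60 CPM in shNTC polysomes (1.96), and TSPAN18 at 0.101 and 0.780 CPM in sheIF6 polysomes and 5.89 and 2.20 CPM in shNTC polysomes (-3.19). In the matrix list of 47 members tested HMCN1 and LAMA4 were the 2 that passed with the block, both lower. In this list 7 lay above both shNTC libraries and 4 below (14.9% and 8.51%, near the 11.4% and 11.3% of all genes tested). FBN2, fibrillin 2, stood at 6.51 and 6.19 CPM in sheIF6 polysomes and at 1.81 and 2.38 CPM in shNTC polysomes (1.598, SE 0.460; adjusted p = 0.646, and 0.0644 with the block), and LAMB2, another laminin chain, at 5.18 and 5.04 CPM in sheIF6 polysomes and 2.21 and 2.33 CPM in shNTC polysomes (1.17). The 9 fibroblast markers summed to 232 and 118 CPM in sheIF6 polysomes and to 516 and 153 CPM in shNTC polysomes, nearly all of it COL1A2. The median log2 change of the 9 was 0.56, opposite in sign to the sum, with 5 higher and 2 lower in both pairs of libraries of the same number. Of all 23100 genes tested, 6226 were higher and 6249 lower in both pairs. PDGFRA stood at 2.20 and 1.73 CPM in sheIF6 polysomes and at 1.13 and 0.396 CPM in shNTC polysomes. DCN was at 0 in all 4 libraries and PDGFRB and FAP in 3 each, and the part of such cells in the matrix values was not tested. Of 27 glutamate and GABA receptor genes tested, 6 lay below and 1 above both shNTC libraries, and none passed in either fit. These were 22.2% and 3.70%, beside 11.3% and 11.4% of all genes tested. GABRA5 and GRIN2D, subunits of GABA and NMDA receptors, stood at 0.682 and 0.268 CPM and at 3.31 and 3.85 CPM in sheIF6 polysomes, against 2.00 and 3.44 CPM and 9.81 and 8.24 CPM in shNTC polysomes.

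The integrated stress response list had 10 of 28 members below and 1 above both shNTC libraries, and none passed. These were 35.7% and 3.57%, beside 11.3% and 11.4% of all genes tested. The median of -0.23 ran from -0.42 to -0.12 on leaving out 1 library. ALDH1L2, a mitochondrial folate enzyme, stood at 1.62 and 0.975 CPM in sheIF6 polysomes and at 5.37 and 4.31 CPM in shNTC polysomes (-1.90, SE 0.558; adjusted p = 0.658). SLC1A5, a glutamine transporter, stood at 51.7 and 35.1 CPM in sheIF6 polysomes and at 84.0 and 64.4 CPM in shNTC polysomes. ATF4, the transcription factor of this response, stood at 137 and 220 CPM in sheIF6 polysomes and at 145 and 224 CPM in shNTC polysomes and followed the replicate number.

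The messages of the translation machinery differed little. The 47 large-subunit and 32 small-subunit ribosomal protein genes had median log2 changes of 0.10 and 0.10, with 4 and 1 of them above both shNTC libraries and 0 below. The shares above were 8.51% and 3.13%, beside 11.4% of all genes tested above and 11.3% below. Between libraries of the same number, 38 of the 47 were higher in both pairs and 0 lower, and 22 of the 32 were higher and 1 lower. Of all 23100 genes tested, 6226 were higher in both pairs and 6249 lower. Members of these families can share reads with pseudogenes. The 46 initiation and elongation factors had a median of -0.04 and the 38 nucleolar ribosome biogenesis factors -0.02. SBDS stood at 127 and 107 CPM in sheIF6 polysomes and at 129 and 115 CPM in shNTC polysomes. None of these genes passed in either fit. Leaving out 1 library moved the ribosomal protein medians between -0.14 and 0.38 and so changed their sign. The 13 mitochondrially encoded mRNAs had a median of 0.45, with 0 outside the overlap of the groups and 11 higher and 0 lower in both pairs of the same number. That median ran from -0.45 without sheIF6 replicate 2 to 1.04 without shNTC replicate 2.

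**Figure D3:**
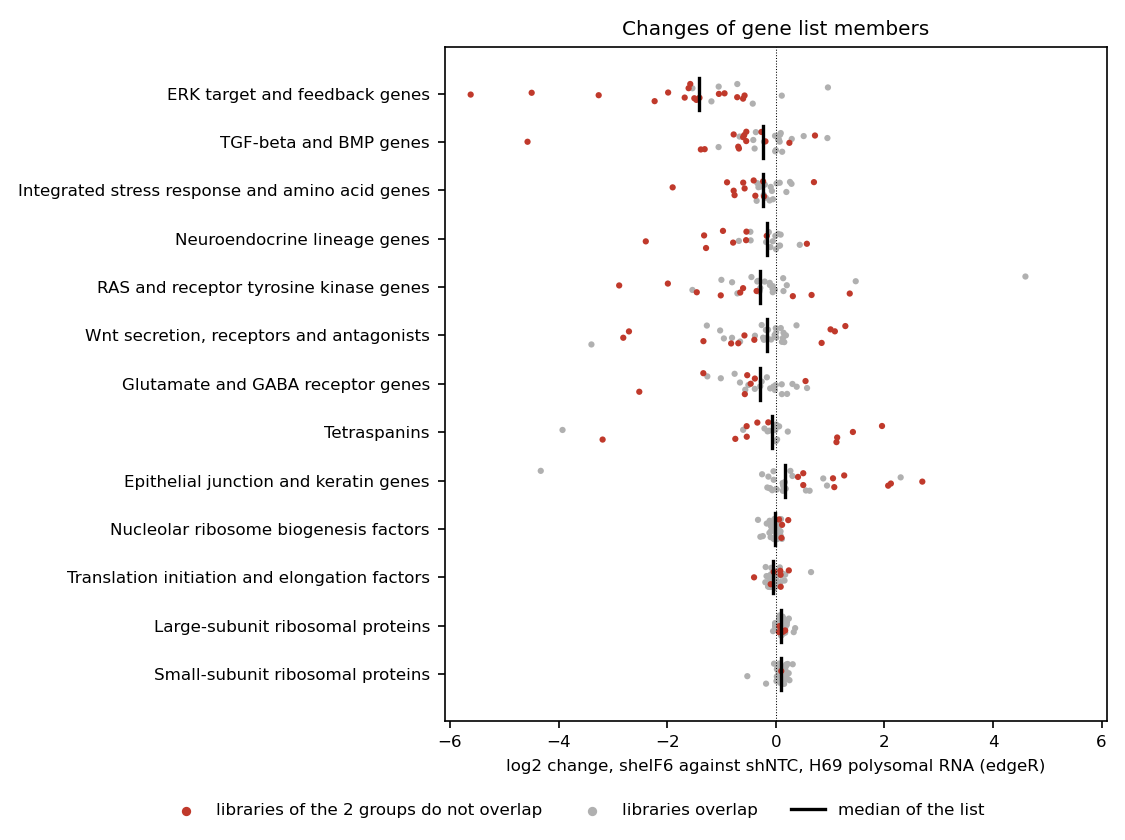
Log2 change of sheIF6 against shNTC in H69 polysomal RNA for the tested members of 13 gene lists, 1 point per gene; red points are members whose sheIF6 libraries do not overlap the shNTC libraries, and the black line is the median of the list. The ERK list is centred at -1.40, while the ribosomal protein lists form narrow groups at 0.10.

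The cytoplasmic RNA of the same cells mostly differed in the same direction as the polysomal RNA. The difference between the polysomal and the cytoplasmic change, the measure of a change in loading, passed for 0 of 23100 genes (0%) with or without the block by edgeR, where 383 had an unadjusted p under 0.05 and DESeq2 called 3. In cytoplasmic RNA alone 0 genes passed (0%), and 1, WLS, passed with the block (0.00433%). Over the 12940 genes with enough counts the polysomal and cytoplasmic changes had a Pearson r of 0.596 across genes, which are not independent, and 73.8% had the same sign. Of the 25 genes called with the block, 24 had the same sign in both fractions and 23 had cytoplasmic libraries that did not overlap in that direction. Of all 23100 genes tested, 4058 lay below and 3869 above both controls in cytoplasm. The fit that called the 25 also used the cytoplasmic libraries, and same-numbered libraries of both fractions deviated together. The fractions are therefore not independent, and the counts are a description. WLS stood at 6.96 and 5.03 CPM in sheIF6 cytoplasm and at 55.2 and 23.8 CPM in shNTC cytoplasm (-2.72), close to its polysomal change of -2.70 without the block. RASGRP1 stood at 12.5 and 9.78 CPM in sheIF6 cytoplasm and at 81.2 and 42.1 CPM in shNTC cytoplasm (-2.47). KCNS3 stood at 8.62 and 5.65 CPM in sheIF6 cytoplasm and at 1.58 and 0.820 CPM in shNTC cytoplasm (2.57). PRRG1 was one of the widest apart, at 3.64 in polysomes and 0.72 in cytoplasm, but the difference of 2.92 did not pass (adjusted p = 1). The ERK list had a cytoplasmic median of -1.45. Of its 23 members 14 lay below and 0 above both cytoplasmic controls, beside 4058 below and 3869 above of all 23100 genes tested. Its cytoplasmic differences of sheIF6 minus shNTC were -1.84 between the libraries numbered 1 and -0.489 between those numbered 2. EIF6 changed by -0.78 in the cytoplasm and -0.84 in polysomes.

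**Figure D4:**
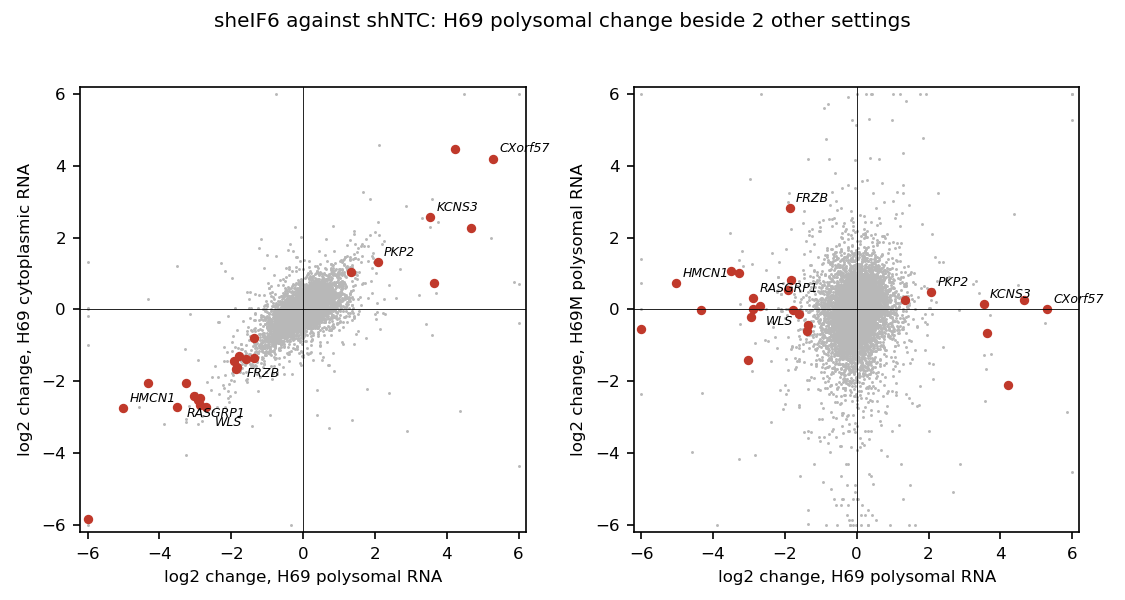
Log2 change of sheIF6 against shNTC in H69 polysomal RNA (horizontal) against the change in H69 cytoplasmic RNA (left, vertical) and in H69M polysomal RNA (right, vertical), 1 grey point per gene with a summed mean level over 2 CPM and red points for genes called with the block; values beyond the axes are drawn at the edge. The left cloud lies along the diagonal with r = 0.596 over genes with enough counts, and the right cloud has r = 0.142.

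The polysomal changes of H69 were set beside those of H69M cells with the same shRNAs. Over the same 12940 genes the H69 and H69M polysomal changes had r = 0.142 and the same sign in 58.4%. The difference between the lines passed for 1 gene (0.00433%), HMCN1 (-5.75, SE 0.630; adjusted p = 0.0139), and for 37 genes (0.16%) with the block. The HMCN1 call was lost on leaving out H69 sheIF6 replicate 1 or 2, H69 shNTC replicate 2 or H69M sheIF6 replicate 1. Both this test and that of the H69 change use the same 4 H69 libraries. HMCN1 stood at 135 and 139 CPM in H69M sheIF6 polysomes and at 94.6 and 70.2 CPM in H69M shNTC polysomes. WLS stood at 304 and 365 CPM in H69M sheIF6 polysomes and at 312 and 315 CPM in H69M shNTC polysomes, and the difference of its changes, H69 minus H69M, was -2.77 with the block (adjusted p = 0.00983, and 0.462 without). FRZB stood at 78.2 and 115 CPM in H69M sheIF6 polysomes and at 11.9 and 15.5 CPM in H69M shNTC polysomes, opposite in sign to H69 (-4.63 with the block, adjusted p = 0.00284). DSG2 stood at 10.0 and 10.1 CPM in H69M sheIF6 polysomes and at 32.5 and 43.9 CPM in H69M shNTC polysomes, also opposite to H69 (3.95 with the block, adjusted p = 0.0269). LAMA4 and RASGRP1 differed between the lines with the block as well (-2.67 and -3.08, adjusted p = 0.00880 and 0.0345). The ERK list had a median of -0.46 in H69M polysomes, a difference that was not tested.

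Of the 18 genes lower with the block, 7 were over 10 times higher in H69M than in H69 control polysomes. HMCN1 in shNTC polysomes was 2.53% of its H69M control level and AMOTL2 0.748%. Genes higher with the block had this trait too. KIF16B, PAPLN, PRRG1, PKP2 and KCNS3 in shNTC polysomes were at 0.141, 0.546, 0.588, 2.76 and 9.51% of their H69M control levels. The remaining higher genes, CLEC1A and CXorf57, were not over 10 times higher in H69M. The trait was therefore not limited to the lower genes, and its share among all genes tested was not examined. In bulk RNA, fewer cells of a kind and less RNA per cell cannot be told apart. Over 83 genes with over 20 CPM in H69M shNTC cytoplasm and under 0.05 CPM in H69 sheIF6 cytoplasm, the median level was 0% of that H69M level in all 4 H69 polysomal libraries. The 90th percentile was 0.208 and 0.143% in sheIF6 polysomes and 0.202 and 0.648% in shNTC polysomes. In H69 shNTC cytoplasmic replicate 1 the median was 0.225%. The genes were chosen for a low level in H69 sheIF6 cytoplasm, with no such condition on H69 shNTC libraries. That choice favours low values in sheIF6 libraries, so these levels cannot compare sheIF6 with shNTC. The part of such transcripts, high in H69M, in the results was not tested.

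Several of the genes with the smallest p share their bases with another gene name on the same strand, where a read cannot be assigned to one name. BIVM-ERCC5 is the readthrough of the neighbours BIVM and ERCC5 on chromosome 13. It stood at 25.8 and 40.01 CPM in sheIF6 polysomes and at 0 and 0.0247 CPM in shNTC polysomes, while ERCC5, a DNA repair endonuclease, stood at 6.82 and 2.90 CPM in sheIF6 polysomes and at 22.2 and 24.9 CPM in shNTC polysomes. The 3 names together summed to 51.5 and 63.3 CPM in sheIF6 polysomes and to 48.6 and 58.2 CPM in shNTC polysomes. ZNF320 and ZNF468, zinc-finger genes on chromosome 19, stood at 28.5 and 37.4 CPM and at 15.3 and 16.1 CPM in sheIF6 polysomes, against 1.53 and 1.63 CPM and 47.7 and 45.2 CPM in shNTC polysomes. Their sum was 43.7 and 53.5 CPM in sheIF6 polysomes and 49.2 and 46.8 CPM in shNTC polysomes. ZBED6 lies within ZC3H11A on chromosome 1, and the pair summed to 93.7 and 84.4 CPM in sheIF6 polysomes and to 87.6 and 77.7 CPM in shNTC polysomes, with ZBED6 at 71.4 and 81.8 CPM in sheIF6 polysomes against 27.9 and 8.76 CPM in shNTC polysomes. In each set the names differed in opposite directions while the sums overlapped between the groups. None of these names passed in either fit, and the sets were chosen after their values were seen. Of 316 same-strand overlapping pairs, 2 moved oppositely by over 1 each on the log2 scale with a sum within 0.5. The split also varied between replicates in H69M. BIVM-ERCC5 stood at 0 and 34.6 CPM in H69M sheIF6 polysomes, and ZNF320 at 4.74 and 38.9 CPM. ZC3H11A stood at 154 and 23.1 CPM in H69M shNTC polysomes. Whether the split follows the knockdown was not tested. In H69 the ZNF320 change was 4.38 in polysomes and -2.82 in the cytoplasm.

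**Figure D5:**
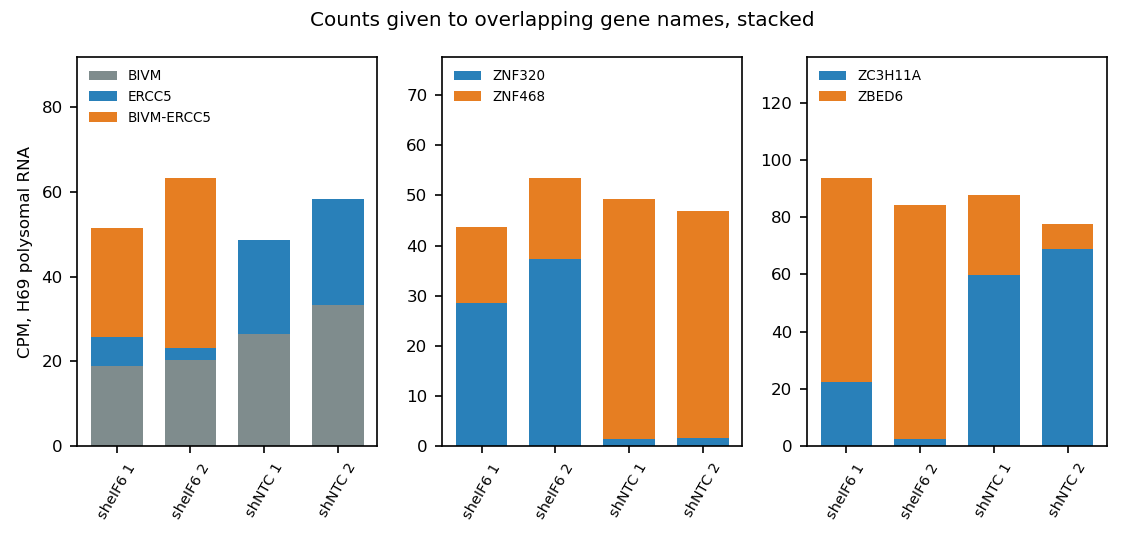
Stacked level in CPM of the overlapping gene names in each H69 polysomal library, sheIF6 left and shNTC right. The split between the names differs between these groups, while the height of the stacks, 43.7 to 53.5 CPM for the ZNF320 set, overlaps between them. In H69M polysomes, not drawn, the split also differed between replicates of the same shRNA.

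The median change differed little between genes of different level, coding length and loading. In 5 equal bins of the 12940 genes by mean level, and of the 11709 with a known coding length, the median log2 change ran from -0.06 to 0.04. In 5 bins by polysomal against cytoplasmic level in control libraries it ran from -0.04 to 0.01.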

How the data were processed

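RNA was sequenced from polysomal and cytoplasmic fractions of sheIF6 and shNTC cells of H69 and H69M, with 2 libraries in each of 8 groups. The authors deposited raw counts of reads per gene name, made with STAR and HTSeq on GRCh38 per the submitters' processing notes; versions and the strand setting are not given in the sources used here. The library kit, per the labels' protocols, does not keep strand, so reads of a gene and an antisense partner cannot be told apart; of 175 named genes, 37 overlap another gene on the same strand and 50 one on the opposite strand.

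Counts were scaled by TMM, filtered with filterByExpr (minimum 10 counts) and fitted over all 16 libraries and 8 groups by edgeR 4.0.16 in R 4.3.3, with the robust quasi-likelihood test and Benjamini-Hochberg adjustment over all genes, at a limit of 0.05. Groups came from the labels. Libraries of the same number deviated together within a line (r from 0.259 to 0.485 over 6 pairs of H69 groups and from 0.232 to 0.770 in H69M) but not between lines (-0.208 to 0.0433), so a fit with the number as a block within each line is given beside the main one; the labels do not state this pairing, which comes from the data. Alternatives used DESeq2 1.42.0, limma 3.58.1 (voom), other scaling, other filters, fewer libraries and leaving out each library. The fits were tested on simulated data of 21883 genes, where 3 and 2 unchanged genes were called without and with the block. These data had 1 mean per gene for all groups, apart from the changed genes, and no replicate effect.

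Named genes were EIF6, every called gene, the 12 genes in each direction with the smallest p whose groups did not overlap and whose higher group averaged at least 100 counts, a panel, and up to 4 members of each of 41 lists with the largest change under the same conditions; other list members and overlapping names were added after their values were seen. The members and lists were chosen with earlier results of these data known. Gene coordinates are those of GENCODE release 29, which held 30375 of the 56832 names and 16925 of the 23100 tested. Depth ran from 36005326 to 87269772 counts per library, and floors and intervals cover counting error only.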

Additional observations from a re-analysis of the deposited data

Results flagged for a closer look

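The HMCN1 change in polysomal RNA differed between the lines. It was -5.02 in H69 and 0.73 in H69M on the log2 scale, and the difference, H69 minus H69M, was -5.75 (SE 0.630; adjusted p = 0.0139 by the edgeR quasi-likelihood test, and 0.0116 with the replicate block). Both H69 sheIF6 libraries lay below both H69 shNTC libraries, at 0.0505 and 0.0731 CPM against 2.00 and 2.18 CPM, and both H69M sheIF6 libraries lay above both H69M shNTC libraries, at 135 and 139 CPM against 94.6 and 70.2 CPM. The call was lost by limma-voom and on leaving out H69 sheIF6 replicate 1 or 2, H69 shNTC replicate 2 or H69M sheIF6 replicate 1. The H69 values rest on 2 and 3 reads in sheIF6 libraries and 76 and 88 reads in shNTC libraries.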

How the results depend on the processing

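The count of polysomal calls in H69 was 1 by edgeR. It was 25 with the replicate block, 4 with no low-count filter, 92 by DESeq2, 0 by limma-voom, where 829 genes had an unadjusted p under 0.05, and 4 from the 8 H69 libraries alone. It was 114 from those with the block, 0 from the 4 polysomal libraries alone (485 unadjusted) and 13 from those with the block. Leaving out 1 library gave 1 to 4 calls, and with the block, in fits chosen after seeing the data, 1 to 24 (14 without sheIF6 replicate 1, 5 without shNTC replicate 2). The cytoplasmic count of 0 became 1 with the block, 2 with no low-count filter, 78 by DESeq2 and 62 from the 8 H69 libraries with the block, and 0 to 38 without 1 library. The polysomal minus cytoplasmic count of 0 became 3 by DESeq2, 3 from the 8 H69 libraries, 7 from those with the block, and 0 to 1 without 1 library. The H69 minus H69M count of 1 became 37 with the block, 112 by DESeq2, 0 by limma-voom (1026 unadjusted), and 0 to 3 without 1 library. The cause of these shifts was not tested. Of 1970 values recomputed for 99 genes, 1827 kept direction and side of the limit, 132 passed it, 9 lost it and 2 reversed. The 2 were CTD-2207O23.3, which ran from -13.62 to 0 on leaving out 1 library and was at 0 without shNTC replicate 2, with and without the block. HMCN1 kept its direction in all 20 alternatives, from -5.36 to -4.73, and passed in 11.

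With 2 libraries a group, no 1.5-fold or 2-fold change was called in simulated data, and most genes called stood at a few CPM.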
